A study of Homo sapiens with 8 samples.

Results

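The genes described here are 9 genes known to respond to transforming growth factor beta (TGF-beta) or to build and adhere to the extracellular matrix: TGFBI, CDKN2B, BHLHE40, SKIL, PMEPA1, THBS1, FN1, CCN1 (formerly CYR61) and CCN2 (formerly CTGF). They were taken by symbol from the 20897 genes listed in each library, and all 9 were found. One of them, PMEPA1, was listed at 0 in all 8 libraries and was not tested, so the tests cover 8 of the 9.

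TGF-beta ligands bind a pair of receptor kinases that phosphorylate SMAD2 and SMAD3, which enter the nucleus with SMAD4 and switch on genes for matrix proteins, cell-cycle arrest and feedback inhibitors. Bone morphogenetic proteins (BMPs) belong to the same ligand superfamily but act mainly through SMAD1, SMAD5 and SMAD8, and in hepatocytes BMP6 is known as the iron-responsive inducer of hepcidin. CCN1 and CCN2 are also classical targets of YAP and TAZ, coactivators of the TEAD transcription factors that respond to cell attachment and tension.

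The study asked how genistein, a soy isoflavone that inhibits tyrosine kinases and binds oestrogen receptors, acts on hepcidin-producing cells. The cells were HepG2, an established human hepatocellular carcinoma line, and polyadenylated RNA was sequenced from 3 vehicle libraries (1% DMSO), 3 genistein libraries and 2 BMP6 libraries (50 ng/ml). Every library, controls included, had 1% DMSO in medium with 1% serum for the 18 h of treatment. Before that, all cultures shared growth in 10% serum, 24 h after plating and 8 h of equilibration. The genistein dose is labelled 10, but in micromolar in one place and millimolar in another, so its unit is uncertain here. The submitters call the libraries of a group biological replicates; no library carries a batch or date label.

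Values are FPKM, sequenced fragments scaled by transcript length and by the number mapped in the library, and the number of reads behind them is unknown, so no depth can be given. The deposited tables give each value a lower and an upper bound within its library, at a level the sources used here do not state; they do not cover the spread between replicates. All 8 HepG2 markers examined, among them ALB and AFP, were present in every library, but the levels of some moved. With genistein against DMSO, 4 were higher and 4 lower, with 1 called, lower, and a median log2 change of 0.006. ALB stood at 17949, 30831 and 40448 FPKM after DMSO and at 61916, 45780 and 47636 after genistein. TTR fell after genistein (log2 change -2.64, limma adjusted p = 0.0193), from 8187, 8195 and 7162 FPKM to 1523, 1576 and 822. APOA1 was at 50517 FPKM or more after DMSO and at 12742 or less after genistein (adjusted p = 0.0895). Of 11 stellate cell and fibroblast markers, 8 were at 0 in all 8 libraries, including COL1A1, COL3A1 and DCN. Endothelial markers were at 0 after DMSO and genistein and summed to at most 1.71 FPKM after BMP6, and 3 of 6 leukocyte markers were at 0 throughout. Of the other 3, LYZ, at 1149 to 4807 FPKM, fell after genistein (limma adjusted p = 0.0448), CD68 rose (adjusted p = 0.0406), and CD14 was at 0, 0 and 19.3 FPKM after DMSO and 31.96, 74.4 and 23.9 after genistein (adjusted p = 0.0604). The part of these markers in the results below was not tested. The summed FPKM of the whole stellate list was 254 to 265 after DMSO, 139 to 179 after genistein and 149 to 261 after BMP6. Most of that sum was ACTA2. Without ACTA2 it was 1.88 to 6.28 after DMSO, 0 to 2.92 after genistein and 14.3 to 19.5 after BMP6. Both BMP6 libraries differed widely from each other: 50.8% of the 11993 tested genes with a known transcript length differed between them by more than 1 on the log2(FPKM + 1) scale. Values for BMP6 are therefore given with both libraries.

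Tests were made with limma on log2(FPKM + 1) over 12661 genes, and adjusted p-values below are from that fit, Benjamini-Hochberg adjusted over all of these genes, with 0.05 as the threshold. Log2 changes on this scale understate the change of low genes. "Rose" and "fell" are used only for changes past the threshold.

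**Figure D1:**
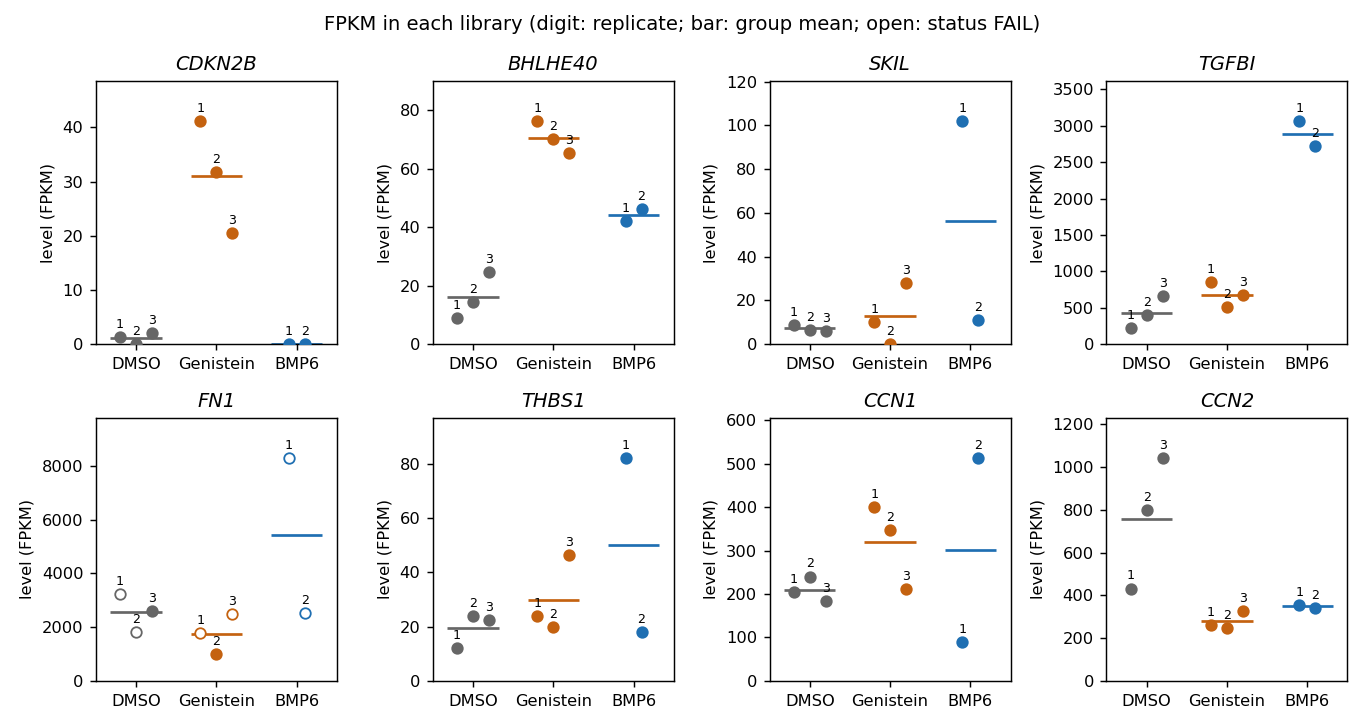
FPKM (linear axis) of the 8 tested genes in the DMSO, genistein and BMP6 libraries, one point per library with its replicate number, the group mean as a bar, and open points where the deposited status is FAIL. CDKN2B stands at 20.5 to 41.2 FPKM in the genistein libraries and at most 2.15 elsewhere, TGFBI at 2725 and 3064 in the BMP6 libraries, and the BMP6 libraries split widely for SKIL, THBS1, FN1 and CCN1.

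After genistein, CDKN2B and BHLHE40 rose, the first from near 0 and the second 4.52-fold on the FPKM + 1 scale, while CCN2 was lower in all 3 libraries but missed the threshold. After BMP6, TGFBI rose 7.30-fold. CDKN2B was also higher after genistein than after BMP6, where it was at 0. With genistein against DMSO, 2 of the 8 tested genes were called, both higher, against 12.1% of all 12661 genes (6.11% higher and 5.96% lower). For BMP6 and DMSO, 1 of 8 was called, higher after BMP6, against 0.837% of all genes (0.34% higher). Between the treatments 1 of 8 was called, higher after genistein, against 1.39% (0.64% higher). The median log2 change over the 8 genes was 0.56 after genistein and 0.95 after BMP6, each set against DMSO, and -0.40 for genistein minus BMP6. Over all tested genes these medians were 0.05, -0.03 and 0.12. Both treatments were compared with the same DMSO libraries. In these bulk cultures, a change in the share of cells that express a gene and a change in RNA per cell cannot be told apart.

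**Figure D2:**
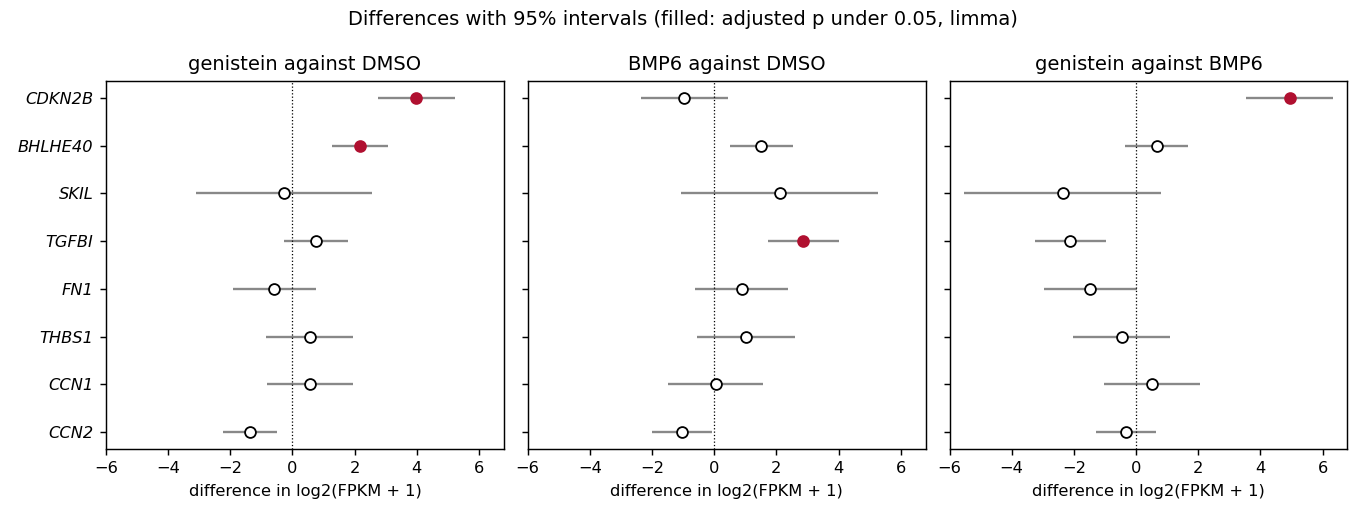
Log2 change on the FPKM + 1 scale of each tested gene in the 3 comparisons, with 95% intervals from the limma fit; filled points are past an adjusted p of 0.05. CDKN2B and BHLHE40 are past it for genistein against DMSO, TGFBI for BMP6 against DMSO and CDKN2B for genistein against BMP6.

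CDKN2B encodes p15INK4b, an inhibitor of the kinases CDK4 and CDK6 that holds cells in G1 and a textbook TGF-beta target. It lies at hg18 chr9:21992909-21999312 (ENSG00000147883), beside CDKN2A and overlapped by the antisense RNA gene CDKN2B-AS1. No source used here says whether the counting used strand, so reads of the antisense gene cannot be told apart. The DMSO libraries had 1.35, 0 and 2.15 FPKM, the genistein libraries 41.2, 31.7 and 20.5, and both BMP6 libraries were listed at 0. Every genistein library stood above every other library, and the lowest of their deposited lower bounds, 11.4 FPKM, was above the highest upper bound of the others, 5.08. The log2 change for genistein against DMSO was 3.99 ± 0.55 (SE; n = 3 and 3; limma adjusted p = 0.00692), and it stayed past the threshold in 17 of 17 alternative settings. The genistein libraries also stood above BMP6 (limma adjusted p = 0.0106), though with the BMP6 group at 0 no fold can be given. That call was lost without Genistein 1 (adjusted p = 0.0517) and with a replicate block (adjusted p = 0.086). BMP6 and DMSO were not told apart (log2 change -0.96 ± 0.61, 95% interval -2.36 to 0.44).

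BHLHE40 encodes a basic helix-loop-helix repressor also known as DEC1, which takes part in the circadian clock and in responses to hypoxia and TGF-beta. It lies at hg18 chr3:4996208-5001861 (ENSG00000134107). Its level was 9.01, 14.3 and 24.8 FPKM after DMSO, 76.3, 70.1 and 65.5 after genistein, and 42.0 and 46.3 after BMP6. The 3 groups did not overlap, with genistein highest, BMP6 between and DMSO lowest. Its log2 change with genistein was 2.18 ± 0.39 (limma adjusted p = 0.0145; n = 3 and 3), with means of 70.6 ± 5.45 against 16.0 ± 8.02 FPKM (SD). That call was lost without DMSO 2 (adjusted p = 0.0672), Genistein 1 (0.0555) or Genistein 3 (0.0625), and with a replicate block (0.0526). BMP6 gave 1.51 ± 0.44 (adjusted p = 0.144), and genistein against BMP6 0.66 ± 0.44 (95% interval -0.34 to 1.67), neither past the threshold.

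The bases before the annotated start of these genes are shown for the genes whose RNA levels differed most clearly between groups. They are the 250 bases upstream in RefSeq on GRCh38.p14, written 5′ to 3′ along the gene, and capitals mark matches on either strand to 5 motifs: CAGAC (the SMAD box), GGAATG (the TEAD element), TGANTCA (AP-1), CACGTG (an E-box) and TGACGTCA (the cAMP response element). RefSeq gave a promoter for 8 of the 9 genes. None was available here for CCN1, so its bases were not searched for the motifs.
CDKN2B, chr9:22009306-22009555, - strand: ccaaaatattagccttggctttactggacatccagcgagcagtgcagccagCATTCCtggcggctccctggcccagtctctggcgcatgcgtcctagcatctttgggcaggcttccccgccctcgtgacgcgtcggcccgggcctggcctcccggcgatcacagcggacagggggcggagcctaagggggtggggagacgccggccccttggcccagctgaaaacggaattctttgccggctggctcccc
BHLHE40, chr3:4979187-4979436, + strand: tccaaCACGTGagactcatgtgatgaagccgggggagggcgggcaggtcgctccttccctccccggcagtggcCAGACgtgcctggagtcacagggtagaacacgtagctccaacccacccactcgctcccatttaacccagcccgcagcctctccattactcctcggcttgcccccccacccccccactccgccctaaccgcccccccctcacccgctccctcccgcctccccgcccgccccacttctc
TGFBI, chr5:136028738-136028987, + strand: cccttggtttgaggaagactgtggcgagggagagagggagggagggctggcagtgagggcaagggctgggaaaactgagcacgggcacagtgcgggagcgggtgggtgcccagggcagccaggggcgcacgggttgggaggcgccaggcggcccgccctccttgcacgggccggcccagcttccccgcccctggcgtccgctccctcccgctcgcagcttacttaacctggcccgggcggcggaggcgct
CCN2, chr6:131951373-131951622, - strand: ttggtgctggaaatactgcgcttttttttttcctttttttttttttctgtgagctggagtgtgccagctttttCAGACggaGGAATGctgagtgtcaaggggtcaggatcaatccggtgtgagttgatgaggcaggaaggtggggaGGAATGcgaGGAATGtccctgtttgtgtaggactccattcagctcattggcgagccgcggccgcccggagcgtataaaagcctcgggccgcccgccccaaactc
Beside these, SKIL and FN1 each hold the palindromic cAMP response element, which is shown with 10 bases on each side.
SKIL, chr3:170357651-170357678, + strand: gaggactcggTGACGTCAgagggctgtg
FN1, chr2:215436234-215436261, - strand: cagtcccccgTGACGTCAcccggagccc
Of all 35116 RefSeq promoter windows of the same length, 38.0% hold CAGAC, 11.9% GGAATG, 6.57% TGANTCA, 6.345% CACGTG and 1.65% TGACGTCA. CCN2 holds 3 matches to GGAATG, first bases at -169, -104 and -95 from the start, and a CAGAC at -177. CDKN2B holds 1 reverse match to GGAATG, at -199. BHLHE40 holds CACGTG at -245 and CAGAC at -177. SKIL holds CAGAC in reverse at -107 and TGACGTCA at -54, THBS1 holds CAGAC at -108 and GGAATG at -46, and FN1 holds TGACGTCA at -183. PMEPA1 has 4 annotated starts, and CAGAC was found at 2 of them. TGFBI holds none of the 5 motifs. A match describes the letters in this window and is no evidence of binding.

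TGFBI encodes a secreted matrix protein that binds integrins and collagens, and was named for its induction by TGF-beta. It lies at hg18 chr5:135392590-135427403 (ENSG00000120708). It stood at 228, 408 and 663 FPKM after DMSO, at 857, 509.6 and 679 after genistein, and at 3064 and 2725 after BMP6. Both BMP6 libraries were above all 6 others, and the DMSO and genistein libraries overlapped. The rise after BMP6 was 2.87 ± 0.50 in log2 units (limma adjusted p = 0.0484; n = 2 and 3), and genistein gave 0.75 ± 0.44 (adjusted p = 0.29). The BMP6 call was close to the threshold and was made in 6 of 17 alternative settings. It held without BMP6 2, and was lost without each other library in turn, with adjusted p of 0.0635 (DMSO 1), 0.212 (DMSO 2), 0.0643 (DMSO 3), 0.0971 (Genistein 1), 0.073 (Genistein 2), 0.122 (Genistein 3) and 0.142 (BMP6 1). In genistein against BMP6 the log2 change was -2.11 ± 0.50, not past the threshold (adjusted p = 0.0941). One fibroblast marker, PDGFRB, was also highest in the BMP6 libraries, at 19.5 and 14.3 FPKM, while the collagen genes of that marker list were at 0 there; its part in the result was not tested.

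CCN2 and CCN1 encode secreted matricellular proteins of the same family, which bind integrins and alter growth factor signalling. CCN2 lies at hg18 chr6:132311014-132314211 (ENSG00000118523) and CCN1 at chr1:85819041-85821974 (ENSG00000142871). CCN2 stood at 432, 800.5 and 1042 FPKM after DMSO, 262, 248 and 328 after genistein, and 356 and 341 after BMP6. Every treated library was below every DMSO library. The log2 change for genistein was -1.36 ± 0.38 (limma adjusted p = 0.0526) and for BMP6 -1.03 ± 0.42 (adjusted p = 0.242), so neither was past the threshold; the genistein change passed it in 7 of 17 alternative settings. CCN1 stood at 205, 240.4 and 184 FPKM after DMSO, 399, 347 and 211 after genistein, and 89.7 and 514 after BMP6. The DMSO libraries were close together and the BMP6 libraries lay on either side of them. The log2 change of CCN1 was 0.56 ± 0.60 (adjusted p = 0.56) for genistein and 0.04 ± 0.67 (95% interval -1.49 to 1.58) for BMP6. The ratio of CCN1 to CCN2 FPKM, which compares values per length within a library, was 0.475, 0.300 and 0.176 after DMSO and 1.53, 1.402 and 0.644 after genistein. Every genistein ratio was above every DMSO ratio, and the exact two-sided permutation p was 0.1, the smallest that 3 against 3 can give. In the BMP6 libraries the ratio was 0.252 and 1.51.

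SKIL encodes SnoN, a repressor that binds SMAD proteins and is itself induced by TGF-beta as negative feedback. It lies at hg18 chr3:171560178-171593226 (ENSG00000136603), and stood at 8.94, 6.62 and 6.25 FPKM after DMSO, 10.0, 0 and 28.0 after genistein, and 102 (deposited bounds 81.8 to 122) and 10.97 (4.35 to 17.6) after BMP6. Both BMP6 libraries were above the DMSO range, but only one of them by far. The log2 change was -0.26 ± 1.23 (adjusted p = 0.91) for genistein and 2.10 ± 1.38 (adjusted p = 0.431) for BMP6. PMEPA1, a membrane protein that binds SMAD2 and SMAD3 and limits TGF-beta signalling, lies at hg18 chr20:55656854-55719947 (ENSG00000124225) and was listed at 0 in every library.

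FN1 encodes fibronectin, the adhesive glycoprotein that hepatocytes also secrete into plasma, and THBS1 encodes thrombospondin 1, which binds and activates latent TGF-beta. FN1 lies at hg18 chr2:215933426-216009036 (ENSG00000115414) and was the most abundant of the 9 genes in 7 of the 8 libraries, TGFBI standing above it in BMP6 2. It had 3242, 1819 and 2591 FPKM after DMSO, 1778, 1017 and 2486 after genistein, and 8304 and 2534 after BMP6. Its deposited estimate is marked FAIL in 6 of 8 libraries, all but DMSO 3 and Genistein 2, so its values are uncertain. THBS1 lies at hg18 chr15:37660572-37681845 (ENSG00000137801), and stood at 12.0, 23.9 and 22.6 FPKM after DMSO, 23.8, 19.7 and 46.4 after genistein, and 82.3 and 18.2 after BMP6. Log2 changes for genistein were -0.59 ± 0.58 for FN1 and 0.56 ± 0.61 for THBS1, and for BMP6 0.89 ± 0.65 and 1.02 ± 0.68, with adjusted p between 0.437 and 0.571. Counting by library separation alone, 3 of 8 genes (CDKN2B, BHLHE40 and CCN2) did not overlap between genistein and DMSO against 43.9% of all genes (23.3% higher and 20.6% lower), 4 of 8 (TGFBI, BHLHE40, SKIL and CCN2) between BMP6 and DMSO against 33.3% (16.1% higher and 17.3% lower), and 5 of 8 (CDKN2B, BHLHE40, TGFBI, FN1 and CCN2) between genistein and BMP6 against 28.9% (16.3% higher and 12.6% lower).

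Transcript length moved with the difference between replicate libraries. The longest annotated transcripts are 7182 bases for SKIL, 7775 for THBS1 and 9171 for FN1, and these genes were higher in BMP6 1 than in BMP6 2 by 3.10, 2.12 and 1.71 on the log2 scale. CCN1, at 2290 bases, had a difference of -2.505. The other 4 differed by -0.14 to 0.17, among them CCN2 at 2339 bases. Over all tested genes with a length the median of the same difference was -1.43, -0.82, -0.37 and 0.00 from the shortest to the longest of 4 equal groups of genes. After the length trend was taken out of every library the differences were 3.07 (SKIL), 2.02 (THBS1), 1.53 (FN1) and -1.43 (CCN1). This step takes out only an average trend over genes, and the part of length in the split of any single gene was not tested. The same step moved CCN2 from 0.06 to 1.11, TGFBI to 0.51, CDKN2B to 0.50 and BHLHE40 to 0.49. Genistein 3 differed from the mean of Genistein 1 and 2 the same way, by 3.13 for SKIL, 1.07 for THBS1 and 0.89 for FN1 and by -0.82 for CCN1.

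**Figure D3:**
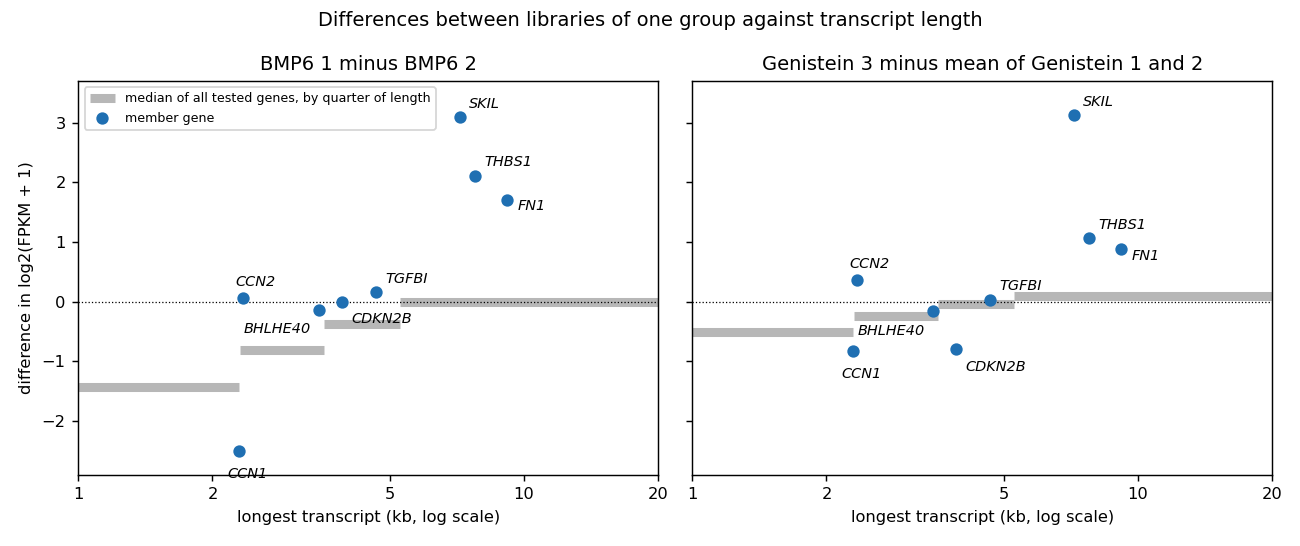
Difference in log2(FPKM + 1) between libraries of one group against the longest transcript (kb, log scale), at left BMP6 1 minus BMP6 2 and at right Genistein 3 minus the mean of Genistein 1 and 2; grey bars give the median of all tested genes in each of 4 equal groups by length. SKIL, THBS1 and FN1 lie above 0 in both panels, and CCN1 lies below.

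The wider pathway was read from 8 gene lists. After genistein, 1 of 19 tested genes in a list of other TGF-beta targets rose and 1 fell, near the 6.11% of all genes called higher and 5.96% called lower. The gene that rose was IL11, a cytokine of the IL-6 family, which was listed at 0 in all DMSO and BMP6 libraries and stood at 45.5, 35.0 and 23.0 FPKM after genistein (limma adjusted p = 0.00151 against DMSO and 0.0049 against BMP6). IL11 passed the filter on low values only through the genistein libraries, so its tests are conditional on a high level there. Being at 0 in all other libraries, it had to differ. Its calls in all 17 alternative settings against DMSO and 16 of 17 against BMP6 (highest adjusted p = 0.0632) therefore add no support. TIMP3, a matrix metalloproteinase inhibitor, fell by 1.102 on the log2 scale after genistein, from 114, 124 and 165 FPKM to 72.0, 55.1 and 58.0. After BMP6, 1 of 19 rose, against 0.34% of all genes. NEDD9, a scaffold protein of focal adhesions, stood at 37.9, 54.8 and 70.1 FPKM after DMSO, 94.9, 99.4 and 123 after genistein, and 479.8 and 221 after BMP6. Its log2 change with BMP6 was 2.61 ± 0.43 (adjusted p = 0.0415), a call that, of the 8 libraries left out in turn, held only without BMP6 2.

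**Figure D4:**
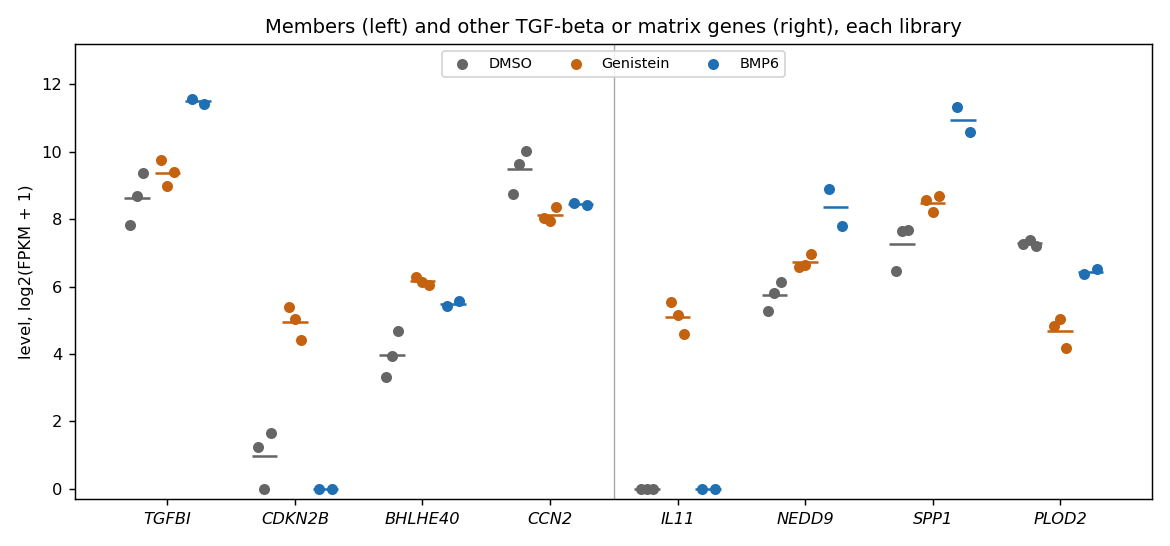
Level as log2(FPKM + 1) for 4 of the 9 genes (left) and 4 genes of the wider lists (right), one point per library and the group mean as a bar. IL11 is above 0 only after genistein, PLOD2 is lowest there, and SPP1 is highest after BMP6.

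The list of matrix proteins had 40 genes, of which 18 were tested and 17 were listed at 0 in all 8 libraries. Of 18 tested matrix proteins, 4 fell after genistein and none rose, against 5.96% and 6.11% of all genes: COL5A2, COL6A1, LAMA5 and FBLN5. COL5A2 passed the filter only through the DMSO libraries, being at 0 in all others, and had to differ. COL6A1, a collagen VI chain, stood at 228, 90.2 and 92.6 FPKM after DMSO and 25.2, 19.8 and 15.6 after genistein (log2 change -2.58 ± 0.54, adjusted p = 0.0225). After BMP6, 1 of 18 rose, against 0.34% of all genes. This was SPP1, encoding osteopontin, at 87.1, 200.2 and 202.4 FPKM after DMSO and 2553 and 1528 after BMP6 (3.69 ± 0.47, adjusted p = 0.0209), a call lost without DMSO 2, DMSO 3, Genistein 3 or BMP6 1 (highest adjusted p = 0.124). SPP1 was also lower in genistein than in BMP6 by 2.46 on the log2 scale (adjusted p = 0.0499), which, of the 8 libraries left out in turn, held only without DMSO 1 or BMP6 2. Among 17 matrix processing genes, 2 fell and 1 rose. PLOD2, a collagen lysyl hydroxylase, fell by 2.60 ± 0.32 after genistein (adjusted p = 0.00494), from 154, 166 and 147 FPKM to 27.7, 31.99 and 17.1. TIMP3 fell in that list as well, and MMP2 rose from 0 in DMSO to 2.21 to 3.77 FPKM, passing the filter only through genistein. Of 14 integrins and related receptors, ITGA1 and ITGA2, the alpha chains of collagen-binding integrins, rose after genistein by 2.53 and 2.90. Of 14 tested YAP and TEAD targets, AXL and ASAP1 rose and NT5E fell. All of these counts stand beside 6.11% of all genes called higher and 5.96% called lower after genistein. Between genistein and BMP6, 2 genes of the lists were called, against 1.39% of all genes. They were IL11, 1 of 19 other TGF-beta targets, and SPP1, 1 of 18 matrix proteins. IL11 passed the filter only through genistein. The other lists, with 8, 14, 14, 17, 14 and 11 genes tested, had no call.

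Among 14 SMAD mediators and inhibitors, 4 rose after genistein, against 6.11% of all genes, and none fell: SMAD2 by 1.44, TGIF1 (a SMAD corepressor) by 1.52, ZFYVE9 (an anchor for SMAD2 at receptors) by 1.60 and USP15 (a deubiquitinase) by 1.92. None was called after BMP6, where limma gave 7 of 14 at an unadjusted p under 0.05, against 18.9% of all genes. Of the 14 log2 changes, 9 were positive and 5 negative. The SMAD list did not stand alone at that limit. After BMP6 it held 9 of 14 YAP and TEAD targets and 6 of 19 other TGF-beta targets. It also held 4 of 18 matrix proteins, 6 of 17 matrix processing genes and 3 of 14 integrins and related receptors. After genistein these 5 lists had 7, 10, 12, 4 and 5, and the SMAD list 5. No TGF-beta ligand, release factor or receptor was called in either treatment against DMSO, with 2 and 1 of 8 at an unadjusted p under 0.05 by limma. The same held for 11 INK4, CIP and cyclin D genes, with 3 and 1 of 11. At that limit stood 30% of all genes for genistein and 18.9% for BMP6. Within that family CDKN2A, the neighbour of CDKN2B that encodes p16INK4a, had a log2 change of -0.04 ± 0.92 after genistein (adjusted p = 0.985). It stood at 46.9, 18.9 and 12.2 FPKM after DMSO and 31.9, 31.5 and 9.83 after genistein, a spread too wide to call it unchanged. These list counts rest on few libraries. The 4 SMAD genes became 1 without DMSO 1 and 0 without any other DMSO or genistein library, and the 3 YAP and TEAD targets 0 or 1 without any of them. Of the 4 matrix proteins, none was called without DMSO 2, DMSO 3 or Genistein 3, and FBLN5 stayed called without DMSO 1, Genistein 1 or Genistein 2. The 2 integrins became 0 without DMSO 2 or Genistein 3, and the 3 matrix processing genes became 1 without DMSO 2, DMSO 3 or any genistein library, PLOD2 being called without each library in turn. Leaving out a BMP6 library, which leaves 1 in that group, raised the counts of several lists for genistein against DMSO. The number of all genes called rose as well. Leaving out DMSO 1 gave 4 other TGF-beta targets, with 428 of 12613 genes called higher and 599 lower. That list had 1 gene called, IL11, without DMSO 2, DMSO 3 or any genistein library. Calls after BMP6 without BMP6 2 rest on 1 BMP6 library. They grew over all genes as well, so they are not read here as a result on the lists.

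The genes whose log2(FPKM + 1) was most like that of each called gene over the 8 libraries, by Pearson's r and as a description only, were PACC1 (0.991), GCLC (0.973) and MED14 (0.972) for CDKN2B. For BHLHE40 they were EIF3D (0.994), SETD5 (0.988) and POTEJ (0.987), the last a member of a family of near-identical copies whose values are uncertain. For TGFBI they were SLC7A6 (0.983), DHX9 (0.983) and ATP8B2 (0.981). All of these share the same 8 libraries and the same 3 groups. EIF3D, like BHLHE40, stood lowest after DMSO (112, 171 and 263 FPKM), highest after genistein (752, 583 and 568) and between after BMP6 (398 and 512).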

How the data were processed

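RNA from 8 HepG2 cultures was measured by RNA-seq (3 DMSO, 3 genistein, 2 BMP6). The authors deposited 1 table of FPKM per gene and library, and per the submitters' processing notes reads were processed on hg18 with Bowtie and TopHat (1.1.0) and with Cuffdiff and Cufflinks (1.0.3). The number of reads is unknown, so no count model could be used, and total FPKM per library ranged from 1704599 to 3105197. File starts were taken as counted from 0, since right minus left was a multiple of 3 for 270 of 316 olfactory receptor genes, most of which have 1 coding exon, and 1 was added. Symbols were matched for 19069 of 20897 IDs.

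FPKM as deposited were tested on log2(FPKM + 1) with limma 3.58.1 in R 4.3.3, with an intensity trend and all 8 libraries in 1 fit (5 residual and 3.22 prior degrees of freedom), over the 12661 genes that reached 1 FPKM in 2 or more libraries. P-values rest on the spread between libraries of a group, moderated over all tested genes. Culture, library preparation and sequencing cannot be told apart in that spread. The CCN1 to CCN2 ratio used an exact permutation test in SciPy 1.17.1 under Python 3.11.15 and was not among the planned tests. Lengths are the longest transcript in GENCODE 29 and covered 94.7% of tested genes.

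One gene of a list is not reported here. The 9 genes and the lists were chosen with earlier results of these data known. All 9 are named, with up to 4 called genes per list and comparison and the 3 genes most correlated with each called gene. Alternatives were the pseudocount, the filter, median-of-ratios scaling, 2 groups only, no trend, a replicate block and each library left out. A pseudocount of 5, removal of each library's length trend, and leaving out DMSO 1, Genistein 2 and BMP6 1 together were added after seeing the data.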

Additional observations from a re-analysis of the deposited data

How the results depend on the processing

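The direction of CDKN2B, BHLHE40, TGFBI, CCN2 and FN1 held in all 17 alternatives of each comparison. Without BMP6 1 or BMP6 2 the lone BMP6 library is assumed to vary like the other groups. The labels state no pairing by replicate number. Deviations of same-numbered libraries correlated between -0.247 and 0.286, and those of different-numbered libraries between -0.594 and 0.594. Deviations within a group sum to 0, and those of the 2 BMP6 libraries mirror each other, so these values cannot settle whether libraries were paired. Under the replicate block the genes called were 414, 4 and 7 and the members called 1, 0 and 0 (genistein against DMSO, BMP6 against DMSO, genistein against BMP6), from 1527, 106 and 176 genes and 2, 1 and 1 members. With the 2 compared groups alone the genes called were 2690, 17 and 37, and members called for BMP6 against DMSO were 0. With 3 libraries left out together they were 2780, 503 and 883, and with the length trend removed 2475, 423 and 515. Members called for BMP6 against DMSO were 0 with a pseudocount of 0.1 or the 3 libraries left out and 2 with the length trend removed, which also gave 2 for genistein against BMP6. Median-of-ratios scaling moved the median of all genes by -0.10 and -0.16 in the comparisons of genistein with DMSO and BMP6, and gave 382 genes for BMP6 against DMSO and 417 genes and 2 members for genistein against BMP6. BMP6 against DMSO gave 173 genes without the trend and 184 with a pseudocount of 5. Leaving out each library in turn gave 229 to 2671, 5 to 1999 and 42 to 629 genes and 1 to 3, 0 to 1 and 0 to 1 members.

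Several uncalled changes reversed, and the cause was not tested. SKIL in genistein against DMSO became 1.13 without Genistein 2 (range -1.303 to 1.13 over libraries left out), 1.27 with the 3 libraries left out and 0.15 with a pseudocount of 5. For BMP6 against DMSO, CCN1 became -0.14 under the replicate block, -0.05 without DMSO 3 and -1.21 without BMP6 2 (range -1.21 to 1.296), and THBS1 -0.037 without BMP6 1 (range -0.037 to 2.08) and -0.34 with the 3 libraries left out. For genistein against BMP6, THBS1 became 0.59 (range -1.52 to 0.59) and CCN1 -0.74 (range -0.74 to 1.77) without BMP6 1, and SKIL 0.58, THBS1 0.84 and CCN1 -0.82 with the 3 libraries left out.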
